A study of Sus scrofa with 9 samples.

Results

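Kidneys preserved for 8 h before transplantation, by either of 2 methods, were set against kidneys that went back into the animal without storage. The preserved side held 6 arrays, 3 from static cold storage (SCS) and 3 from normothermic ex vivo kidney perfusion (NEVKP), and the other side held the 3 No Storage arrays, so all 9 arrays of the series took part. Each array came from the kidney biopsy of a different male Yorkshire pig of 30 kg. In every group the right kidney first had 30 min of warm ischemia, was then removed and flushed, and returned to the same animal by autotransplantation, during which the left kidney was taken out. SCS keeps the organ in a cold bath with no flow through its vessels, and NEVKP perfuses it near body temperature outside the animal. Biopsies were taken on day 3 after the operation. No Storage kidneys had therefore also been through warm ischemia, surgery and reperfusion, so the comparison does not set injury against a healthy kidney. The sides differ by the 8 h outside the body and by all that went with it, which cannot be told apart. A difference is given as preserved minus No Storage on the log2 scale throughout, where 1 unit is a doubling.

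A kidney that loses and regains its blood flow injures above all the proximal tubule, the nephron segment that reclaims most of the filtrate and draws its energy largely from oxidising fatty acids. Surviving tubule cells lose differentiated functions for a time, produce adhesion molecules, protease inhibitors and cytokines, and rebuild the epithelium, while fibroblasts lay down matrix and leukocytes enter the tissue. Cold storage slows metabolism without supplying oxygen, and warm perfusion supplies both oxygen and nutrients.

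One log2 intensity per probe set and array had been deposited, with array medians no higher than 5.80. Transcripts that define the kidney were bright on all arrays: the thick ascending limb transporter SLC12A1 read 10.20 to 12.14 and the proximal tubule receptor LRP2 (megalin) 11.42 to 12.42. Probe sets had a median SD of 0.148 among the 3 No Storage arrays and 0.214 among the 6 preserved arrays. Principal component 1, which held 27.7% of the variance, placed No Storage arrays at -27.0 to -19.7 and preserved arrays at -6.81 to 34.4. SCS replicate 2 (34.4) and NEVKP replicate 2 (21.8) lay farthest out on it. They also carried the lowest weights, 0.458 and 0.580, when arrays were weighted by how well they fitted their side, preserved or No Storage. The small number of arrays limits the precision of every value. Whole-biopsy RNA cannot tell fewer cells of a type apart from less RNA per cell.

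Across 12355 genes with a single symbol, 0 passed an adjusted p of 0.05 (limma), which is 0% of them, and the smallest adjusted p was 0.0919. No gene can therefore be called changed, and the descriptions that follow rest on the values of the arrays and on 2 looser counts. At an unadjusted p under 0.05 there were 873 genes higher (7.07%) and 928 lower (7.51%) in preserved kidneys, or 14.6% together. Over all 19124 probe sets, named or not, the counts were 1267 higher (6.63%) and 1265 lower (6.61%). The 6 preserved arrays all lay above the 3 No Storage arrays for 535 genes (4.33%) and all below them for 604 genes (4.89%), or 9.22% together. When each array was centred on its own median the balance shifted, to 607 genes higher and 1298 lower at the same unadjusted threshold, because preserved arrays had slightly higher medians. Without No Storage replicate 3 the counts were 573 and 627. Leaving out both arrays of lowest weight gave 770 and 857. With single arrays left out, 4.64% to 7.64% of all genes were higher and 5.07% to 8.10% lower. With centred arrays these shares were 4.91% and 10.5%. List counts in those settings are to be read beside these shares.

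The differences were mostly modest. A log2 difference beyond 0.5 was measured for 503 genes upward and 487 downward, of which 232 and 228 had no overlap between preserved and unstored kidneys. Beyond 1 there were 52 and 51, of which 23 and 24 had no overlap.

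The 10 genes with the smallest p among those higher in preserved kidneys came from several functions. ITGB3, the beta-3 subunit of the vitronectin receptor and of the platelet fibrinogen receptor (NCBI Gene ID 397063), read 5.93, 5.87 and 5.59 in No Storage. The preserved kidneys ran from 6.68 through a median of 6.91 to 7.20, so all 6 stood clear of the unstored ones. The difference was 1.16 (SE 0.14, 95% interval 0.85 to 1.47), a 2.24-fold higher level, at a limma adjusted p of 0.0919.

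TIMP1, a secreted inhibitor of matrix metalloproteinases (NCBI Gene ID 396862), read 8.95, 8.74 and 8.59 without storage and 9.42, 10.22 and 10.71 as the lowest, median and highest preserved value. Its difference of 1.40 (95% interval 0.89 to 1.91, limma adjusted p = 0.112) was the largest of the 10 leading genes on this side. LGALS1 (NCBI Gene ID 414915), which encodes the secreted sugar-binding protein galectin-1, lay at 8.40, 8.26 and 7.82 without storage and at 8.90, 9.33 and 9.84 with it. For this lectin the gap between the highest unstored and the lowest preserved kidney was small beside the difference in means of 1.21 (95% interval 0.77 to 1.65).

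SPI1, the transcription factor PU.1 that directs myeloid cell development (NCBI Gene ID 414912), read 6.39, 6.01 and 5.96 in No Storage, and its preserved values were 6.88 at the lowest, 7.14 at the median and 7.33 at the highest. The difference was 0.98 (SE 0.14, limma adjusted p = 0.109). EVI2B, a leukocyte membrane protein, differed by 0.82 and PIK3AP1, an adaptor that links B cell and Toll-like receptor signals to PI3 kinase, by 1.13. GPX8, a peroxidase of the endoplasmic reticulum (NCBI Gene ID 100519691), was very even in No Storage, at 5.53, 5.55 and 5.57, against 6.31, 6.54 and 6.98 in preserved kidneys. Its 2 probe sets hold identical values, so the second adds no evidence to the difference of 1.03. The actin-binding peptide gene TMSB10 differed by 0.74, the MAP kinase phosphatase gene DUSP5 by 0.90 and TMEM44, which encodes a transmembrane protein, by 0.75. Adjusted p for these 10 genes lay between 0.0919 and 0.112, none past the threshold, and the 6 preserved arrays stood above all No Storage arrays for each of them. The genes were chosen by p in this same comparison, so that separation is no further evidence.

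**Figure D1:**
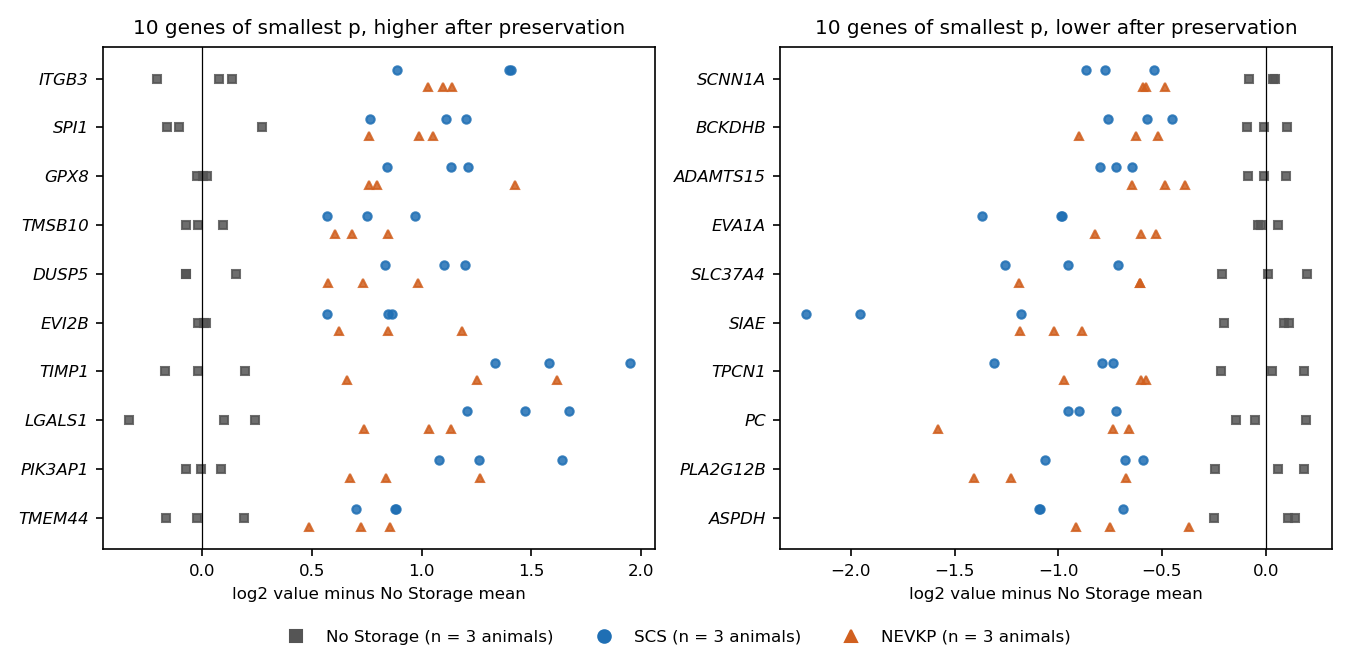
Log2 value of each array minus the No Storage mean of that gene (x axis) for the 10 genes of smallest p on each side (rows), left those higher and right those lower after preservation. Each symbol is 1 animal: grey squares No Storage, blue circles SCS, orange triangles NEVKP, 3 each. SCS and NEVKP symbols lie on the same side of every No Storage symbol in all 20 rows, as for ITGB3 (lowest preserved value 6.68, highest No Storage value 5.93). The rows were chosen by p in this comparison, so the separation is no further evidence.

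The 10 leading genes on the lower side were also mixed in function. SCNN1A, the alpha subunit of the epithelial sodium channel (NCBI Gene ID 396608), read 8.05, 8.06 and 7.93 without storage and 7.15, 7.43 and 7.53 as the lowest, median and highest preserved value. The difference was -0.64 (95% interval -0.89 to -0.39, limma adjusted p = 0.115), with small spread on both sides. SIAE, an esterase that removes acetyl groups from sialic acid (NCBI Gene ID 100521812), had the largest difference of these 10, -1.41 (95% interval -2.02 to -0.80). Its values were 8.88, 8.58 and 8.90 in No Storage and 6.57, 7.60 and 7.90 in preserved kidneys.

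PC, pyruvate carboxylase, which feeds pyruvate into gluconeogenesis and the TCA cycle (NCBI Gene ID 397630), read 9.66, 9.99 and 9.75 without storage against 8.22, 8.98 and 9.14, a difference of -0.92 (limma adjusted p = 0.166). SLC37A4, the glucose-6-phosphate transporter that works with it in glucose release, differed by -0.89. BCKDHB, a subunit of the enzyme that breaks down branched-chain amino acids, differed by -0.64 and ASPDH, an aspartate dehydrogenase family gene, by -0.82. The endolysosomal channel gene TPCN1 differed by -0.83, the secreted phospholipase family gene PLA2G12B by -0.94, EVA1A, which encodes a protein of autophagy and cell death, by -0.88 and the metalloproteinase gene ADAMTS15 by -0.61. Adjusted p for these 10 ran from 0.115 to 0.166, so none passed, and again all 6 preserved arrays lay on the same side. The choice by p limits the meaning of that separation here too.

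By size alone, other genes stood out among those without overlap. They were chosen after their values were seen. PLET1, an epithelial surface protein gene, had the largest difference, -2.05 (95% interval -3.18 to -0.92), with 8.31, 9.59 and 8.59 in No Storage and 5.46, 6.89 and 7.71 in preserved kidneys. SHAS2, the pig symbol for hyaluronan synthase 2, differed by 1.49, from 4.10, 3.75 and 3.57 without storage to 4.71, 5.07 and 6.06. The probe set annotated to the microRNA gene MIR21 differed by 1.45 (No Storage 5.40, 5.67 and 5.19; preserved 5.92, 6.90 and 7.73), and an array of this kind does not show whether the mature microRNA followed. Limma adjusted p for the 3 lay between 0.166 and 0.181. ITGB6, the epithelial integrin subunit that activates TGF-beta, differed by 1.12, the urokinase receptor gene PLAUR by 1.08 and the guidance factor gene SEMA3C by 1.34. The monocarboxylate transporter family gene SLC16A4 differed by -1.36 and the coagulation factor gene F9 by -1.32.

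The gene lists and their members were chosen with earlier results of these data known, so their shares are a description and no test. Among them, tubular injury and repair stood high in preserved kidneys. Of 34 measured members, 25 were higher at an unadjusted p under 0.05 (73.5%, against 7.07% of all genes) and 0 lower, while 0 passed an adjusted p of 0.05. The 6 preserved arrays lay above all No Storage arrays for 19 members (55.9%, against 4.33% of all genes). The median difference over the list was 0.61, against -0.01 over all genes, and 31 of 34 members lay above 0. ITGB3, TMSB10, TIMP1 and LGALS1 lead this list and have been given above. The classic urinary injury markers did not lead it. LCN2 (lipocalin 2) read 9.37, 8.74 and 9.06 without storage and 8.46, 9.45 and 10.15 with it, groups that overlap, for a difference of 0.39 (95% interval -0.30 to 1.07, limma adjusted p = 0.649). It was 0.23 without No Storage replicate 2, 0.25 without SCS replicate 1 and 0.58 without NEVKP replicate 1. HAVCR1 (KIM-1) was dim, at 2.40 to 2.69 in No Storage and 2.42 to 2.59 in preserved kidneys, in the lowest part of the arrays' range, and the difference was -0.05 (limma adjusted p = 0.869).

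Matrix and cytoskeleton genes stood high as well. Of 37 measured extracellular matrix genes, 20 were higher at an unadjusted p under 0.05 (54.1%) and 0 lower, 14 of the 37 had no overlap (37.8%), and the median was 0.45. COL1A1, the alpha-1 chain of type I collagen (NCBI Gene ID 397571), led with 10.60, 10.58 and 10.86 without storage against 11.39, 11.64 and 12.25. Every preserved kidney lay above every unstored one, and the difference was 0.99 (95% interval 0.60 to 1.39, limma adjusted p = 0.118). The proteoglycan gene VCAN differed by 1.27, COL1A2, the partner chain of type I collagen, by 0.75 and TGFBI, a TGF-beta induced matrix protein, by 1.11. Of 35 actin cytoskeleton genes, 18 were higher (51.4%) and 0 lower, 13 without overlap (37.1%), with a smaller median of 0.30. After TMSB10 came the tropomyosin gene TPM4 (0.54), the actin crosslinker gene ACTN1 (0.69) and the scaffold gene IQGAP1 (0.43). Smooth muscle and pericyte markers, another source of contractile transcripts, had a median of 0.22 with 9 of 27 higher and 2 lower (33.3% and 7.41%), and the higher count was 5 without No Storage replicate 1 or without No Storage replicate 3. The mean log2 level of these markers was 7.62 to 7.68 in No Storage and 7.63 to 8.22 in preserved kidneys. Without overlap 2 were higher and 2 lower (7.41% each, against 4.33% and 4.89% of all genes). The 4 members of smallest p went both ways. CASQ2 differed by -1.22, and RYR2 by -0.89 to -0.68 with single arrays left out. On that measure TPM1 (0.31 to 0.49) and TPM2 (0.45 to 0.65) lay above 0. The part of smooth muscle cells and pericytes in the matrix and actin values was not tested.

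**Figure D2:**
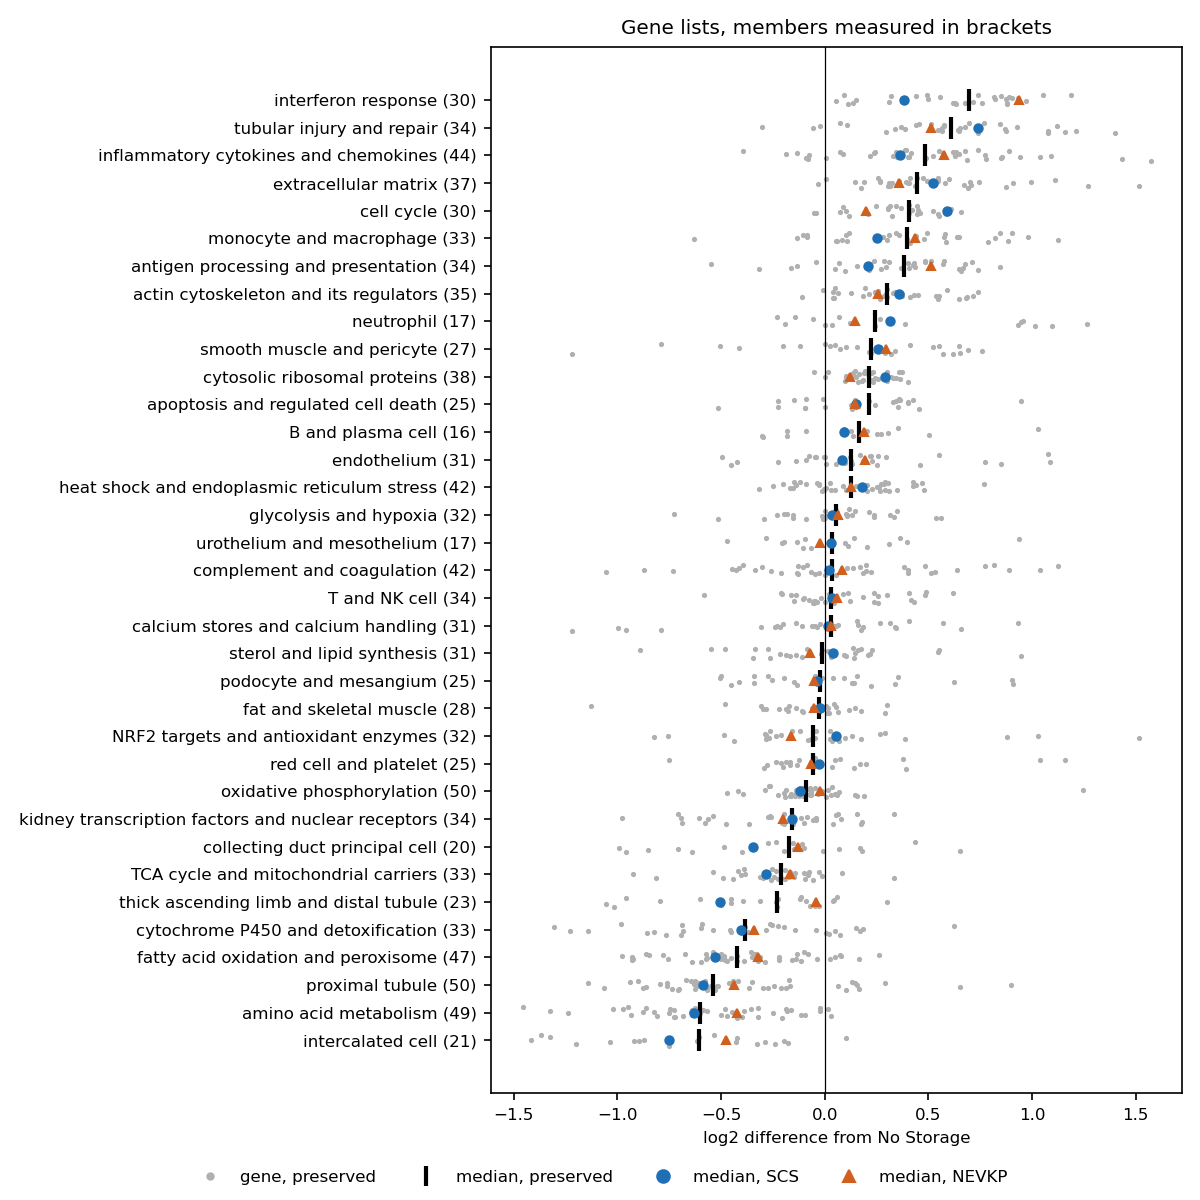
Log2 difference from No Storage (x axis) for the measured members of the 35 gene lists (rows, number of members in brackets). Grey points are genes in preserved minus No Storage, black bars the list median, blue circles and orange triangles the medians for SCS and NEVKP alone. Injury (median 0.61) and matrix (0.45) lie to the right, amino acid metabolism (-0.60) and intercalated cell (-0.61) to the left, and the SCS and NEVKP medians lie on the same side of 0 in each of these 4 lists.

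Inflammatory genes lay higher after preservation by either method. Of 44 measured cytokine and chemokine genes, 20 were higher at an unadjusted p under 0.05 (45.5%) and 1 lower, 12 were higher without overlap (27.3%), and the median was 0.48. CCL2, the chemokine that draws monocytes (NCBI Gene ID 397422), led with a difference of 1.57 (95% interval 0.93 to 2.21, limma adjusted p = 0.148). It read 7.99, 8.18 and 7.72 without storage and 8.82, 9.38 and 10.45 with it, a 2.97-fold difference with no overlap. CSF1, the growth factor of macrophages, differed by 0.85 and the chemokine gene CCL4 by 0.57. IL6 read 4.54, 4.98 and 5.06 without storage and spread widely with it, from 5.15 through 6.32 to 7.16. Its difference of 1.43 (95% interval 0.62 to 2.25) thus rests on kidneys that ranged from just above the unstored level to far above it.

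Antigen processing genes had a median of 0.38, with 15 of 34 higher (44.1%) and 2 lower, and 13 higher without overlap (38.2%). PSME2, a subunit of the proteasome activator, led with 7.52, 7.34 and 7.36 against 7.84, 8.12 and 8.51, a difference of 0.71. TAPBP, which helps load peptides onto class I molecules, differed by 0.51, the lysosomal protease gene CTSS by 0.58 and CD86, a costimulatory ligand, by 0.85. Without No Storage replicate 2 the higher count was 6 and the median 0.24, and the lower count was 0 without No Storage replicate 1 or 3. The interferon response list had the highest median of all 35, 0.69, and all 30 measured members lay above 0, but only 8 were higher at an unadjusted p under 0.05 (26.7%) and 3 without overlap (10%). Its medians were 0.38 for SCS and 0.94 for NEVKP, and its preserved arrays ran over a wider range than on any of the other 34 lists. The score per array, the mean over the list relative to the No Storage mean, ran from -0.34 to 0.34 in No Storage and from 0.02 to 1.72 in preserved kidneys, so the groups overlapped. The count was 5 without No Storage replicate 1, 3 without No Storage replicate 2, 13 without No Storage replicate 3, 5 without SCS replicate 1 and 17 without SCS replicate 2. It was 5 with centred arrays, 16 with array weights and 18 without both arrays of lowest weight. LGALS9, the lectin galectin-9, differed by 0.90, the interferon signalling factor genes IRF9 by 0.74 and IRF1 by 0.67, and TRIM21, a cytosolic antibody receptor, by 0.50.

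Monocyte and macrophage markers also stood high, while T and NK cell markers stood near all genes. CTSS and CD86, named above for antigen processing, are among the monocyte and macrophage markers too. Of 33 monocyte and macrophage genes, 16 were higher at an unadjusted p under 0.05 (48.5%, against 7.07% of all genes) and 1 lower. There were 9 higher without overlap (27.3%, against 4.33% of all genes), and the median was 0.40. The mean log2 level of the list was 6.35 to 6.47 in No Storage and 6.45 to 7.07 in preserved kidneys, ranges that overlapped. SPI1, EVI2B, PIK3AP1 and EVI2A (0.79) led it. Not every marker of these cells took part: CD14, the lipopolysaccharide co-receptor, differed by 0.06 and the mannose receptor gene MRC1 by 0.10, both chosen after their values were seen. Of 17 neutrophil genes, 5 were higher (29.4%) and 1 without overlap, and the median was 0.24, or 0.16 without No Storage replicate 1. VNN2 (0.95, and 0.60 without No Storage replicate 3) and ALOX5AP (1.01) led, while 4 of the 17 were dim. The mean log2 level of this list was 4.93 to 5.23 in No Storage and 5.12 to 5.65 in preserved kidneys. T and NK cell genes had a median of 0.03, with 3 of 34 higher (8.82%) and 1 lower. The higher count was 6 without No Storage replicate 1 and 1 without No Storage replicate 2, where the median was -0.007. Their leading members were GZMK (-0.58, dim) and TBX21 (0.43), and the mean log2 level was 4.63 to 4.87 in No Storage and 4.68 to 4.95 in preserved kidneys. B and plasma cell genes had a median of 0.17, with 3 of 16 higher (18.8%) and 0 without overlap. Without No Storage replicate 2 there were 0 higher and 1 lower, and without both arrays of lowest weight the median was 0.03. They were led by DERL3 (0.50, and 0.30 without No Storage replicate 2), at 5.42 to 5.69 and 5.56 to 5.90. The part of leukocyte numbers in the inflammation, interferon and antigen values was not tested.

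Genes of amino acid metabolism and of fatty acid oxidation stood low in preserved kidneys. Of 49 measured genes of amino acid metabolism, 34 were lower at an unadjusted p under 0.05 (69.4%, against 7.51% of all genes) and 0 higher, 17 of the 49 had no overlap (34.7%, against 4.89% of all genes), and the median was -0.60. Among 47 genes of fatty acid oxidation and the peroxisome, 29 were lower (61.7%) and 0 higher, 15 without overlap (31.9%), with a median of -0.42. The fatty acid count was 17 without No Storage replicate 2 and 19 without both arrays of lowest weight. No member of either list passed an adjusted p of 0.05.

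After BCKDHB, the amino acid list was led by PCCA, a subunit of propionyl-CoA carboxylase (-0.63), and by DDO, the peroxisomal D-aspartate oxidase (NCBI Gene ID 100037287). DDO read 9.36, 9.61 and 9.54 without storage and 7.20, 8.16 and 8.94 with it, a 2.75-fold lower level (difference -1.46, 95% interval -2.15 to -0.76, limma adjusted p = 0.166). The highest preserved kidney still lay below all 3 unstored ones. AGXT, which detoxifies glyoxylate, differed by -0.63. In the fatty acid list PPARA, the nuclear receptor that drives this pathway, read 9.77, 9.23 and 9.78 without storage and 8.08, 8.62 and 9.20 with it. The gap was narrow, 9.23 against 9.20, beside a difference in means of -0.98. The peroxisomal coenzyme A hydrolase gene NUDT19 differed by -0.67, the short-chain acyl-CoA dehydrogenase gene ACADS by -0.78 and the peroxisomal thiolase gene ACAA1 by -0.92, the last with overlapping groups.

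The TCA cycle and mitochondrial carrier list lay lower to a smaller extent, with a median of -0.21, 7 of 33 lower (21.2%) and 1 higher, and 7 lower without overlap (21.2%). Beside PC these were led by PCK2, the mitochondrial enzyme that makes phosphoenolpyruvate (-0.82), the citrate carrier gene SLC25A1 (-0.54) and SUCLG2, a subunit of succinyl-CoA ligase (-0.31). Oxidative phosphorylation subunits stood near the background, at a median of -0.09 with 3 of 50 lower (6%, against 7.51% of all genes) and 1 higher. Without overlap, however, 6 lay lower (12%, against 4.89% of all genes). With centred arrays 5 were lower and the median was -0.14, and without No Storage replicate 2 the median was -0.06. Among its leading members, the complex I subunit genes NDUFB5 and NDUFV1 differed by -0.47 and -0.42. UQCR10, a complex III subunit gene, differed by 1.25, but 1 unstored kidney read 6.45 beside 8.93 and 9.13, and without No Storage replicate 1 the difference was 0.39. Glycolysis and hypoxia genes had a median of 0.05 with 1 of 32 higher and 1 lower (3.12% each), namely LDHA, lactate dehydrogenase A (0.54), and EGLN3, an oxygen sensor of the HIF pathway (-0.52). The median was 0.016 without No Storage replicate 1, 0.022 without No Storage replicate 3 and 0.033 without NEVKP replicate 2.

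Cytochrome P450 and other detoxification genes also stood low, with a median of -0.39, 15 of 33 lower (45.5%), 0 higher and 8 lower without overlap (24.2%). Leaving out No Storage replicate 3 gave 9 lower, and the median was -0.24 without both arrays of lowest weight. NR1I3, the nuclear receptor CAR that induces many of them, differed by -0.69, the P450 gene CYP4F2 by -0.86, the flavin monooxygenase gene FMO1 by -0.98 and the pig P450 gene CYP2C49 by -1.31. Closely related P450 genes may share signal on an array. Kidney transcription factors and nuclear receptors had a median of -0.16, with 8 of 34 lower (23.5%), 0 higher and 4 lower without overlap (11.8%), and 5 lower without No Storage replicate 2. RORA differed by -0.71, and HNF4A, the factor that maintains proximal tubule identity, read 9.48, 9.76 and 9.57 without storage against 8.38, 9.12 and 9.31, a difference of -0.58 (limma adjusted p = 0.225).

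Markers of the cells that carry this metabolism also stood low. Of 50 measured proximal tubule genes, 28 were lower at an unadjusted p under 0.05 (56%) and 0 higher, 15 were lower without overlap (30%) and 1 higher, and the median was -0.54. The lower count was 17 without No Storage replicate 3. The mean log2 level of the list was 8.91 to 9.05 in No Storage and 8.31 to 8.82 in preserved kidneys, and 2 of the 50 were dim. The zinc transporter gene SLC39A5 read 6.96, 6.94 and 7.01 without storage and 6.19, 6.36 and 6.77 with it, a difference of -0.57. The brush border protocadherin gene CDHR2 differed by -0.59 and SLC13A3, which takes up dicarboxylates, by -0.90. The urate transporter gene SLC22A12 differed by -0.76, and by -0.50 without No Storage replicate 2. SLC34A1, a phosphate transporter of this segment, went the other way, with overlapping values of 4.01, 4.82 and 4.46 against 4.28, 5.21 and 5.80 (difference 0.66, 95% interval -0.09 to 1.40, limma adjusted p = 0.443). All of these values lay far below the mean level of the list. The lowest was close to the dim limit of 3.92, so this probe set is weak evidence. The part of proximal tubule cell content in the metabolic values was not tested.

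Intercalated cells, which secrete acid or base in the collecting duct, had the lowest median of all 35 lists, -0.61. Of 21 measured markers, 16 were lower (76.2%) and 0 higher, and 8 were lower without overlap (38.1%). The lower count was 10 without No Storage replicate 2. The ammonia channel gene RHCG (NCBI Gene ID 733644) read 8.37, 8.45 and 8.73 without storage and 6.36, 7.02 and 8.06 with it, a 2.59-fold lower level (difference -1.37, 95% interval -2.16 to -0.58, limma adjusted p = 0.183). Its relative RHBG differed by -1.42, with 1 preserved kidney among the unstored ones. ATP6V0A4, a subunit of the apical proton pump, read 9.17, 9.45 and 9.18 against 7.15, 8.20 and 8.88, a difference of -1.20, and the transcription factor gene DMRT2 differed by -0.53.

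The neighbouring principal cells and the segments before them were less even. Collecting duct principal cell genes had a median of -0.17, with 4 of 20 lower (20%, against 7.51% of all genes) and 2 higher (10%, against 7.07%). The lower count was 2 without No Storage replicate 2 or 3, and 7 without both arrays of lowest weight. The higher count was 1 without No Storage replicate 2 or 3, SCS replicate 2 or 3, or NEVKP replicate 2 or 3. The median was -0.27 without NEVKP replicate 2. Beside SCNN1A, the channel's gamma subunit gene SCNN1G differed by -0.85 and HSD11B2, which protects the mineralocorticoid receptor from cortisol, by -0.99. KRT19, a keratin also on the injury list, differed by 0.65. Thick ascending limb and distal tubule genes had a median of -0.23 with 3 of 23 lower (13%), and medians of -0.51 for SCS and -0.04 for NEVKP. Its pooled median was -0.36 without No Storage replicate 2, -0.15 without SCS replicate 1 and -0.38 without NEVKP replicate 2, and the last omission gave 8 lower genes. Only 1 was lower without No Storage replicate 1 or 3 (4.35%, against 5.97% and 5.07% of all genes in those settings). Without NEVKP replicate 1 there were 5 lower. The parathyroid hormone receptor gene PTH1R differed by -0.79 and the kelch protein gene KLHL3 by -0.45. UMOD, the uromodulin of this segment, parted by method in its values: it read 12.66, 11.64 and 12.30 in No Storage, 10.09, 8.84 and 11.03 in SCS and 11.93, 12.96 and 12.26 in NEVKP. Its pooled difference of -1.01 (95% interval -2.65 to 0.62, limma adjusted p = 0.615) averages SCS and NEVKP values that did not overlap, and it was -0.55 without SCS replicate 2. NEVKP minus SCS was 2.40 for it (95% interval 1.31 to 3.49, limma adjusted p = 0.439), not past the threshold.

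**Figure D3:**
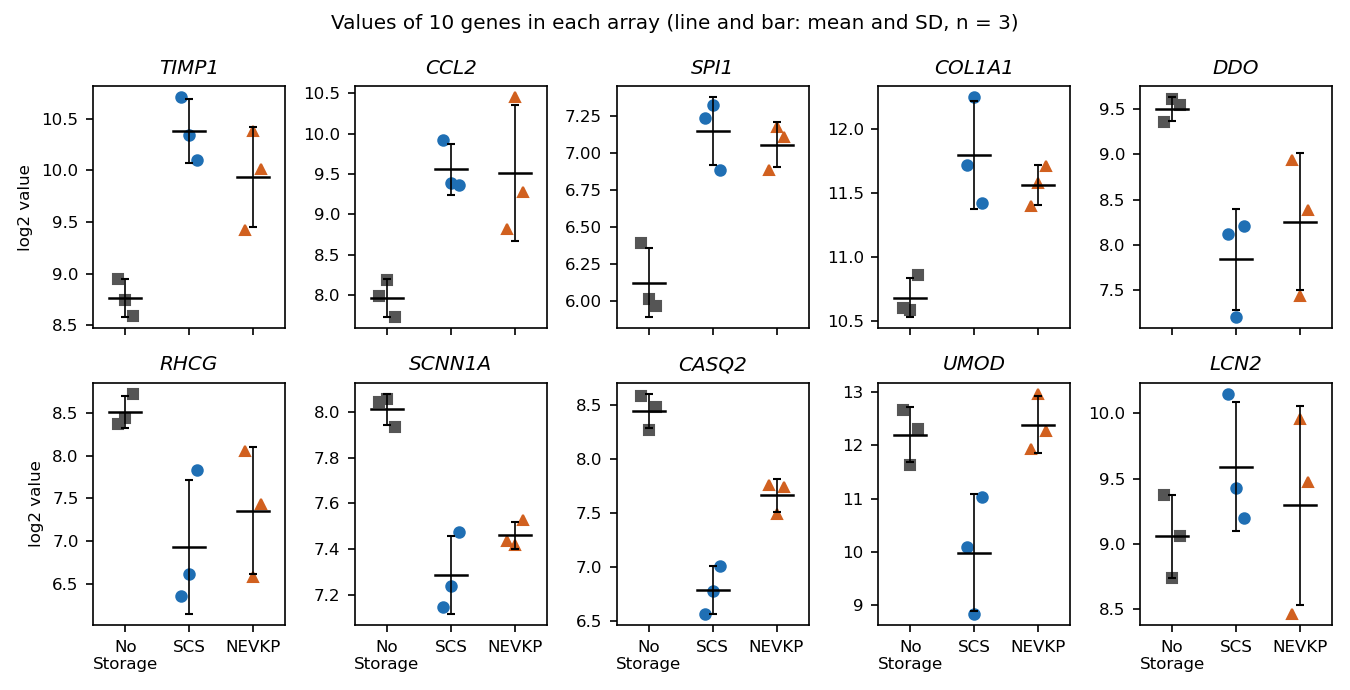
Log2 value in each array (y axis, own scale per panel) for 10 genes in No Storage, SCS and NEVKP (x axis, 3 animals each), with the mean as a line and the SD as a bar. The 10 were chosen after their values were seen, to show shared differences, TIMP1, CCL2, SPI1, COL1A1, DDO, RHCG, SCNN1A and CASQ2, beside UMOD and LCN2. For these 2 markers the pooled preserved values overlap those of No Storage. UMOD lies lower in SCS (8.84 to 11.03) than in NEVKP (11.93 to 12.96), and the LCN2 groups overlap (No Storage 8.74 to 9.37, preserved 8.46 to 10.15).

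Cell cycle, ribosomal, stress and cell death genes lay higher in part, with counts that moved from setting to setting. Cell cycle genes had a median of 0.41 (SCS 0.59, NEVKP 0.20). Of 30, 9 were higher (30%, against 7.07% of all genes) but only 1 without overlap (3.33%, against 4.33%). The count was 4 with centred arrays and 14 with array weights. It was 2 without No Storage replicate 1, 16 without No Storage replicate 2, 2 without No Storage replicate 3 (median 0.24), 3 without SCS replicate 1 or 3, 5 without NEVKP replicate 1 and 21 without NEVKP replicate 3. HMGB2, a chromatin protein of dividing cells, differed by 0.61 and the tubulin gene TUBA1B by 0.58, its other probe set by 0.07. Cytosolic ribosomal protein genes had a median of 0.21, with 9 of 38 higher (23.7%) and 8 without overlap (21.1%), led by RPL12 (0.37). Their count was 14 with array weights. Leaving out No Storage replicate 1 or 3 gave 3, replicate 2 of that group gave 2, and the count was 3 and 4 without SCS replicates 1 and 3, 18 without NEVKP replicate 2, and 2 with arrays centred on their medians. Ribosomal protein genes have many near-identical copies, and their values are uncertain for that reason.

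Heat shock and endoplasmic reticulum stress genes had a median of 0.13, with 10 of 42 higher (23.8%) and 7 without overlap (16.7%), led by MANF, a secreted stress protein (0.47), and PDIA6, a disulfide isomerase (0.44). That count was 4, 3 and 6 without No Storage replicates 1, 2 and 3, 3 without SCS replicate 1 (median 0.07), 6 without NEVKP replicate 2 and 4 with centred arrays. Regulated cell death genes had a median of 0.21, with 6 of 25 higher (24%) and 1 lower. The higher count was 1 without No Storage replicate 3, and the lower count was 2 without NEVKP replicate 3. Without overlap there were 2 higher (8%, against 4.33% of all genes) and 1 lower (4%, against 4.89%). CASP1, the inflammatory caspase, read 8.03, 7.33 and 7.87 without storage and 8.34, 8.65 and 9.10 with it, a difference of 0.95 (limma adjusted p = 0.166), and the mitochondrial factor gene AIFM1 differed by -0.51.

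Complement and coagulation genes had a median of 0.03 (-0.02 with centred arrays). Of 42, 5 were higher (11.9%, against 7.07% of all genes) and 3 lower (7.14%, against 7.51%). The median was 0.019 without No Storage replicate 2 and 0.10 without No Storage replicate 3. The counts were 3 higher without No Storage replicate 3, and 5 lower without NEVKP replicate 1 or without NEVKP replicate 2. SERPINC1 (antithrombin) differed by -0.87 and the urokinase gene PLAU by 0.89. NRF2 targets and antioxidant enzymes had a median of -0.06, with 3 of 32 higher (9.38%) and 2 lower (6.25%). There were 6 lower with centred arrays, 5 without NEVKP replicate 1 and 1 without No Storage replicate 2, and the median ran from -0.12 to -0.003 with single No Storage arrays left out (replicates 1 and 2). Beside GPX8 the transporter gene ABCC3 differed by 0.88 and catalase (CAT) by -0.49. Among 31 genes that make sterols and lipids, 3 were higher (9.68%) and 2 lower (6.45%), around a median of -0.01. Without No Storage replicate 1 there were 1 higher and 1 lower, and the median was -0.087. Lower members numbered 1 without No Storage replicate 3, SCS replicate 2 or NEVKP replicate 1, and 4 without NEVKP replicate 2 or 3. The median was 0.058 without No Storage replicate 3. The sterol carrier gene STARD4 differed by -0.89 and the desaturase gene FADS2 by 0.95.

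Calcium handling genes had a median of 0.03, with 3 of 31 higher and 3 lower (9.68% each, against 7.07% and 7.51% of all genes). The counts were 5 higher without NEVKP replicate 1 and 5 lower with centred arrays, and the median was -0.049 without No Storage replicate 2. CASQ2, which encodes a calcium buffer of muscle cells (calsequestrin 2), differed by -1.22 and the reticulum protein gene RCN1 by 0.66. Podocyte and mesangium markers had a median of -0.02, with 5 of 25 higher (20%, against 7.07% of all genes) and 2 lower (8%, against 7.51%). The higher count was 3 without No Storage replicate 1 or 3, without SCS replicate 2 or without NEVKP replicate 2. Lower members numbered 0 without No Storage replicate 1, 1 without No Storage replicate 3, SCS replicate 1 or NEVKP replicate 2, and 4 without No Storage replicate 2. The median ran from -0.095 without No Storage replicate 2 to 0.037 without No Storage replicate 1. SULF1, a heparan sulfate sulfatase, led them (0.90). Endothelial markers had a median of 0.13, with 4 of 31 higher (12.9%) and 1 lower (3.23%). Their median was 0.08 without No Storage replicate 2 and 0.06 without NEVKP replicate 2. The lower count was 0 without No Storage replicate 1 and 3 without NEVKP replicate 2. The adhesion molecule gene VCAM1 read 8.81, 8.14 and 8.44 without storage and 9.14, 9.35 and 10.43 with it (difference 1.08), and endoglin (ENG) differed by 0.55. Red cell and platelet genes had a median of -0.06 and 3 of 25 higher (12%), ITGB3 among them, with THBS1 at 0.39, and 1 lower (4%). The median was 0.05 without No Storage replicate 3 and -0.093 without No Storage replicate 1 or 2. There were 0 lower without No Storage replicate 3 and 2 without No Storage replicate 1, SCS replicate 1 or SCS replicate 3. Fat and skeletal muscle genes (median -0.03, 1 of 28 or 3.57% higher, 2 or 7.14% lower) were led by the lipid droplet gene PLIN4 (-1.13). With single arrays left out their higher count was 0 to 1 and their lower count 1 (No Storage replicate 1 or 3, or SCS replicate 1) to 5 (NEVKP replicate 2). Urothelium and mesothelium genes (median 0.04, 0 of 17 higher, 1 or 5.88% lower) were led by KRT15 (-0.47, dim). Their median ran from -0.039 without NEVKP replicate 2 to 0.092 without NEVKP replicate 1.

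Scores per array showed how far each kidney went. For 6 lists every preserved array scored above every No Storage array, namely injury, matrix, actin, inflammation, antigen processing and regulated cell death. For 7 lists every preserved array scored below, namely fatty acid oxidation, TCA cycle, amino acid metabolism, detoxification, kidney transcription factors, proximal tubule and intercalated cell. Some of these gaps were narrow. The highest No Storage and lowest preserved scores were 0.04 and 0.09 for regulated cell death and 0.12 and 0.19 for antigen processing. The lowest No Storage and highest preserved scores were -0.06 and -0.10 for the TCA cycle and -0.03 and -0.09 for kidney transcription factors. The injury score was -0.08 to 0.08 without storage, 0.76, 0.86 and 0.44 in SCS replicates 1 to 3 and 0.33, 0.90 and 0.38 in NEVKP replicates 1 to 3. The amino acid score was -0.06 to 0.03 without storage, -0.66, -0.98 and -0.43 in SCS and -0.32, -0.67 and -0.33 in NEVKP. On these 2 lists, SCS replicate 1, SCS replicate 2 and NEVKP replicate 2 lay farthest from No Storage and NEVKP replicate 1 nearest, and the range within each method was wider than the difference between the means of the methods.

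**Figure D4:**
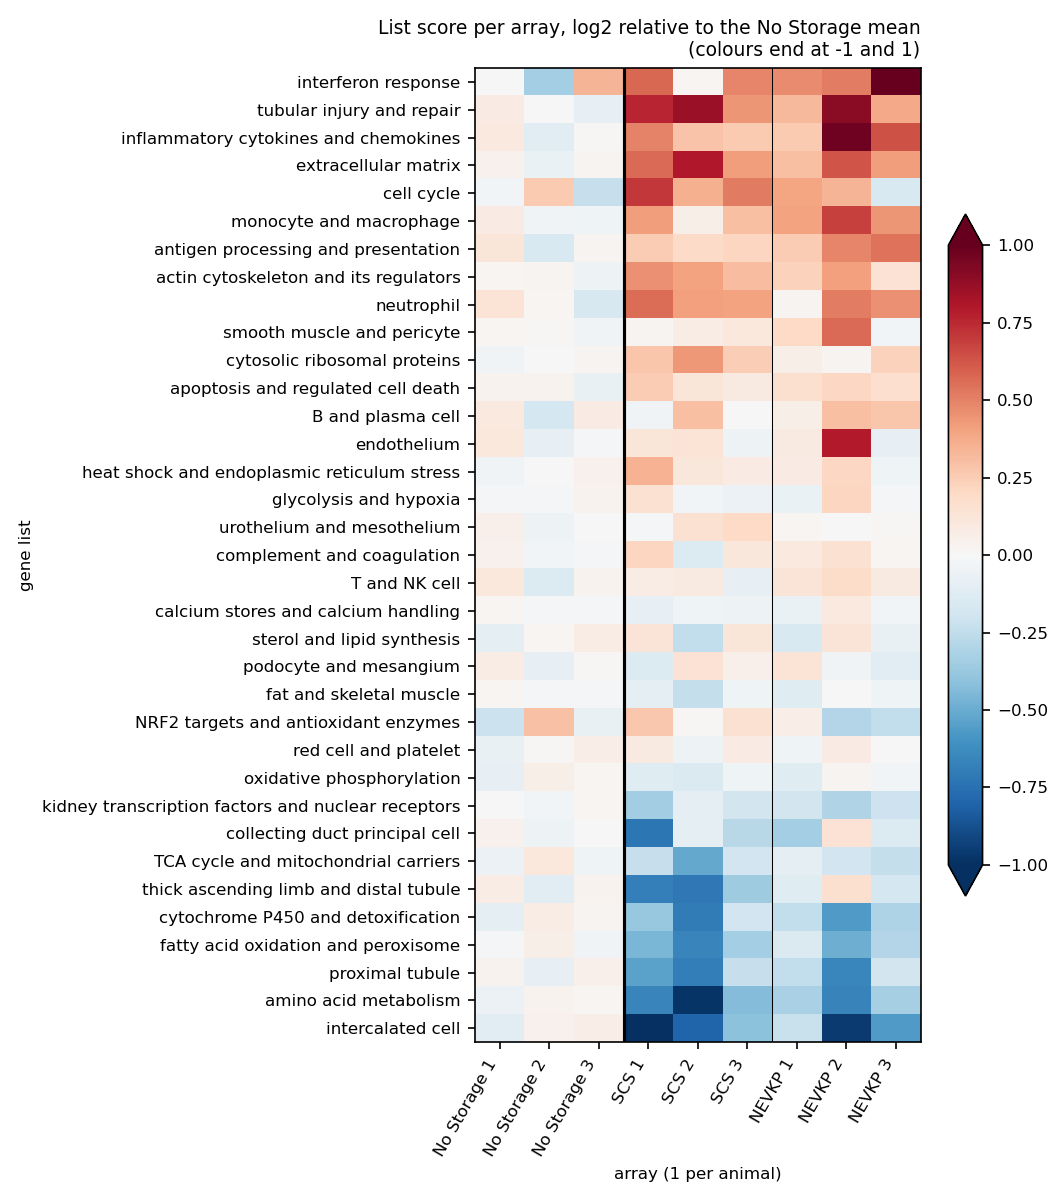
Score of each of the 35 gene lists (rows) in each array (columns, 3 per group), the mean log2 value over the list minus its No Storage mean, red above and blue below. The colours end at -1 and 1, and NEVKP replicate 3 exceeds that on the interferon list (1.72). Injury is red in all 6 preserved arrays (0.33 to 0.90) and amino acid metabolism is blue in all 6 (-0.98 to -0.32).

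The pooled comparison asks what the methods share, and the difference between their means bears on that without using a No Storage value. Its SE, interval and p do use the No Storage arrays, whose spread is pooled in the fit with 3 groups. Between NEVKP and SCS, 0 of 12355 genes passed an adjusted p of 0.05 (limma, 0%), with 7.71% of genes and 7.5% of probe sets at an unadjusted p under 0.05. The median size of the NEVKP minus SCS difference was 0.139 over all genes, 0.143 over the 535 genes higher without overlap and 0.142 over the 604 lower without overlap. The requirement of no overlap uses the same 6 arrays, so these values are a description. Genes on the preserved side of No Storage in all 6 arrays differed between methods by about the median of all genes, while their own median difference from No Storage was 0.455 and 0.421 in size. SCS lay farther from No Storage than NEVKP did for 57.1% of all genes, for 67.5% of the higher and for 70.2% of the lower genes without overlap. SCS minus No Storage and NEVKP minus No Storage share the same 3 No Storage arrays, and their values are set side by side only. Taken alone, SCS had 31 probe sets past a limma adjusted p of 0.05 (0.162%; 26 genes, 0.21%) and NEVKP had 0, with 1735 (9.07%) at an unadjusted p under 0.05. That contrast of counts does not show that the methods differ, which the direct comparison tests.

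Among the 100 genes of smallest p, those most alike between methods were IRF5, CHDH, PCCA, SDC3 and GCDH. For IRF5, an interferon regulatory factor of myeloid cells, both methods lay 0.47 above No Storage, and the difference between them had a 95% interval from -0.28 to 0.28. CHDH, which turns choline into betaine aldehyde, differed by -0.59 in SCS and -0.60 in NEVKP, and GCDH, a dehydrogenase of lysine breakdown, by -0.64 and -0.62. SDC3, a heparan sulfate proteoglycan, differed by 0.53 and 0.52. CCL2 was also alike in mean, at 1.59 in SCS and 1.55 in NEVKP, with a wide interval for the difference between methods of -0.82 to 0.74.

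Least alike were CASQ2, SIAE, LOC100520582, CREB5 and CXHXorf21. CASQ2 read 8.58, 8.27 and 8.48 without storage, 6.57, 6.78 and 7.01 in SCS and 7.75, 7.49 and 7.74 in NEVKP, so both lay low but apart. NEVKP minus SCS was 0.88 for it (95% interval 0.54 to 1.21, limma adjusted p = 0.314), not past the threshold. SIAE differed by -1.78 in SCS and -1.03 in NEVKP, and the uncharacterised LOC100520582 by -1.51 and -0.92. The transcription factor gene CREB5 read 6.87, 6.73 and 6.20 without storage, 8.02, 8.58 and 7.71 in SCS and 7.18, 8.09 and 7.40 in NEVKP. CXHXorf21, an open reading frame gene, differed by 0.60 in SCS and 1.11 in NEVKP and was the one of these 5 that lay farther from No Storage in NEVKP.

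**Figure D5:**
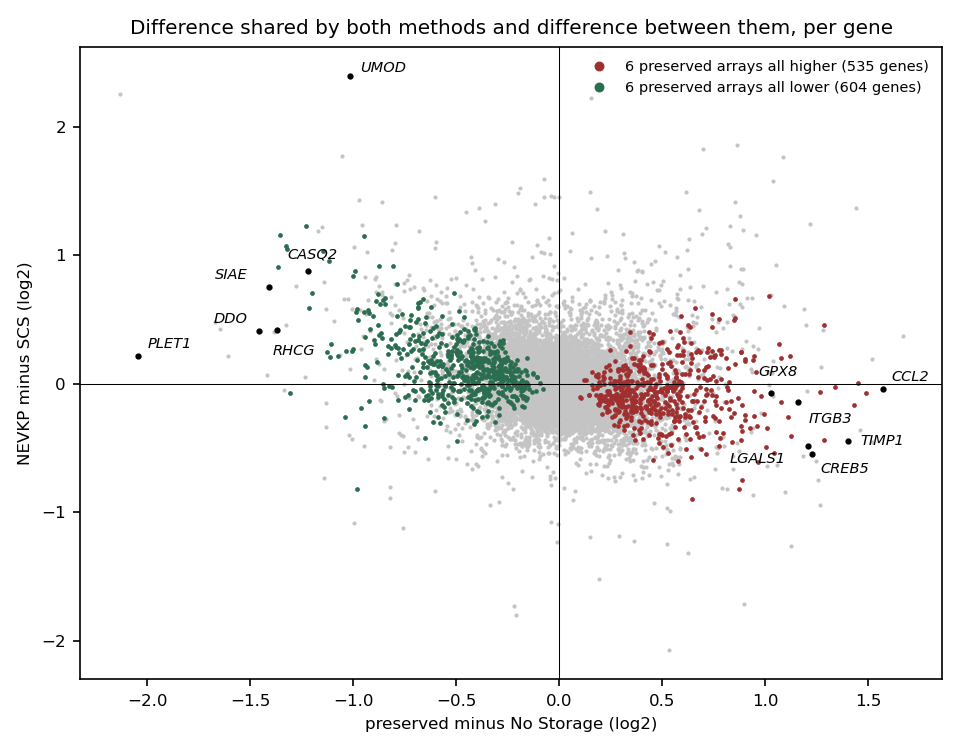
Each point is 1 of 12355 genes, with preserved minus No Storage on the x axis and NEVKP minus SCS on the y axis, both log2. Red points are the 535 genes whose 6 preserved arrays all lie above No Storage, green points the 604 all below, and black points named genes. CCL2 (1.57, -0.04) lies far out on the shared axis and near 0 on the other, whereas UMOD (-1.01, 2.40) differs mainly between methods.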

How the data were processed

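The authors deposited 1 log2 intensity per probe set and array, made with RMA (background correction, scaling between arrays, summary of probes) per the submitters' processing notes. Those notes name limma 3.34.14 too; no source used here gives the type of array or a filter. All 19124 probe sets were tested. The array annotation named 13680 and left 5444 unnamed, and 13323 had 1 symbol, 357 several. With 7 conflicts left out, 13316 gave 12355 genes, each taken from its probe set of highest mean over all 9 arrays (901 had several). A probe set was dim below a log2 value of 3.92, the lowest 25%.

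Each probe set was fitted by limma 3.58.1 (R 4.3.3) with lmFit and eBayes, with preserved and not preserved as the only factor (7 residual and 4.08 prior degrees of freedom) and p adjusted by Benjamini-Hochberg over all probe sets. A fit with 3 groups gave NEVKP minus SCS and each method's difference. The fits were tested on simulated data. Replicate numbers do not mark shared animals, so arrays were treated as independent.

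Named genes followed a rule: up to 10 per side by smallest unadjusted p, none being past the threshold; the 4 members of smallest p of each list; HAVCR1, LCN2, UMOD and SLC34A1; and, of the 100 genes of smallest p, the 5 most and 5 least alike between methods. The first step skipped symbols that are only a locus or open reading frame. The 35 lists (21 pathway, 14 cell type), with 43.2% to 85.7% of members measured, and all members were chosen with earlier results of these data known, and are described by counts, not tested. Sequences were not analysed here.

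Alternatives were the fit with 3 groups, the replicate block, array weights, a prior that is trended and robust, leaving out dim probe sets, centred arrays, probe sets averaged per gene, genes only, and omission of each array. Omission of both arrays of lowest weight was chosen after seeing the data.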

Additional observations from a re-analysis of the deposited data

Results flagged for a closer look

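In 18 of 189 genes and list scores examined, the highest or lowest of the 6 preserved arrays stood apart from the other 5 by more than 0.625 of the whole range, which chance gives in about 1 of 20 groups. Log2 values of genes come first. In NEVKP replicate 2, PC read 8.22 (others 8.85 to 9.14), HNF4A 8.38 (9.04 to 9.31), CCL4 5.41 (4.91 to 5.10), CFP (properdin) 6.18 (5.14 to 5.51) and FADS1 9.10 (7.90 to 8.22). In SCS replicate 2, COL1A1 read 12.25 (11.39 to 11.71), RPLP0 11.27 (10.41 to 10.71) and SLC25A1 8.85 (9.37 to 9.63). In SCS replicate 1, SULF1 read 7.31 (6.46 to 6.74), CD2AP 10.16 (9.55 to 9.77) and KLHL3 4.94 (5.52 to 5.73). TPM2 read 6.51 in NEVKP replicate 3 (others up to 7.20) and TBX21 5.32 in NEVKP replicate 1 (4.89 to 5.02).

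Among list scores, interferon response stood at 1.72 in NEVKP replicate 3 (others 0.02 to 0.58), the TCA cycle at -0.52 in SCS replicate 2 (-0.24 to -0.10) and the neutrophil list at 0.025 in NEVKP replicate 1 (0.40 to 0.56). Endothelium stood at 0.79 (-0.08 to 0.14) and calcium handling at 0.10 (-0.08 to -0.03) in NEVKP replicate 2.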

How the results depend on the processing

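Under all 18 alternatives, 0 probe sets and 0 genes passed an adjusted p of 0.05 for preserved against No Storage (limma), and the smallest adjusted p ranged from 0.0509 with array weights to 0.460 without No Storage replicate 3. Judged by an unadjusted p under 0.05, 1267 probe sets were higher and 1265 lower. The counts were 875 and 1831 with centred arrays and 1199 and 1222 with the replicate block. Same-numbered arrays did not deviate together (correlations -0.139 to 0.131 over 9 pairs). With 3 arrays per group, this cannot exclude that a number marks a shared batch. With single arrays left out, the counts ranged from 822 to 1345 higher and from 906 to 1353 lower (genes 573 to 944 and 627 to 1001), lowest without No Storage replicate 3, where 822 probe sets and 573 genes were higher. Without both arrays of lowest weight they were 1173 and 1180. For NEVKP against SCS 1 probe set passed with array weights and 0 to 1 with single arrays left out. It was UBD without SCS replicate 2 (1.70, adjusted p = 0.0389) and with array weights (1.66, adjusted p = 0.0453). HAVCR1, which is dim, changed sign to 0.0059 without No Storage replicate 1 (range -0.14 to 0.0059 with single arrays left out), and the red cell and platelet median moved from -0.06 to 0.05 without No Storage replicate 3. The other named genes and list medians kept their direction or moved by less than the spread between arrays, within which the medians of the complement, sterol, calcium, podocyte, T and NK cell and urothelium lists also changed sign. The cause of these shifts was not tested.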
